A study of Mus musculus with 12 samples.

Results

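The 39 genes described here encode factors of ribosome biogenesis, the nucleolar pathway that transcribes, modifies and cuts ribosomal RNA and assembles it with ribosomal proteins into the small and large subunits. They were chosen by symbol from a list of 39 names, and all 39 were found among the 14851 genes listed in each of 3 tables of RNA-sequencing values. The libraries came from 562 cells, a spontaneously immortalized line grown from vascular tumors of Tsc1 f/f;Scl-Cre mice, in which tamoxifen had induced deletion of Tsc1 in endothelial cells. Every group, control included, therefore descends from cells with Tsc1 deletion, although the labels give the control genotype as wildtype. The labels also give the strain C57BL/6 and the tissue lymphatic endothelial cells. There were 3 libraries of control cells and 3 of each knockout, namely Fip200 KO, Atg5 KO and Atg7 KO, 12 in all. The KO cells were made with a lentiviral CRISPR-Cas9 vector and puromycin selection, and the control cells carried a guide against EGFP. Fip200 (gene symbol Rb1cc1), Atg5 and Atg7 are each needed for autophagy, the pathway that delivers cytoplasmic cargo to lysosomes for breakdown. The study lists more than 1 guide and more than 1 line for Fip200 KO, and which line gave which library is not stated in the labels. The question behind the comparisons was how gene expression in these tumor cells differed once autophagy was blocked.

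Ribosome biogenesis begins with RNA polymerase I, which transcribes the ribosomal DNA into a long precursor RNA in the nucleolus. Small nucleolar ribonucleoproteins of the box C/D and box H/ACA classes methylate and pseudouridylate this precursor, while large assembly complexes fold and cut it into the RNAs of each subunit. The pathway is known to consume much of the energy of a growing cell, and it is controlled by growth signals that include mTORC1, the kinase complex that TSC1 restrains. Transcription of many of its genes is also known to respond to MYC, which binds the E-box sequence CACGTG.

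Between 17266926 and 23629730 reads were counted per library, and the 39 genes received between 292 and 53717 reads each in every library. Levels are given as RPKM, the reads of a gene per kilobase of its length and scaled to the total reads of the library, which allows levels of different genes to be set side by side. Differences are log2 fold changes of RPKM plus 0.5, tested by limma over all genes that reached an RPKM of 0.5 in at least 3 of the 6 compared libraries. The pseudocount of 0.5 makes the change of the lower genes look smaller than it was. All 39 genes passed this filter in every comparison. A gene was counted as past the threshold where its adjusted p was 0.1 or lower, and as called where its log2 fold change was also at least 1 in size. In bulk RNA, a change in the number of cells of a type and a change in RNA per cell cannot be told apart.

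The endothelial markers were present in every library, with 10 of 10 above an RPKM of 0.5 and sums between 1220 and 3520 RPKM. Of 6 lymphatic endothelial markers, 5 were listed. Lyve1 ran from 60.6 to 393 RPKM, while Prox1, a defining lymphatic factor, ran from 0.0366 to 5.79 RPKM. Summed fibroblast and mural markers were between 2.6 and 43.9 RPKM except in control replicate 2, at 214, and Col1a1, Rgs5 and Cspg4 were below 0.5 RPKM in every library. Col3a1 ran from 0.158 to 143 RPKM and Dcn from 0.055 to 56.9 RPKM, both highest in control replicate 2. Summed leukocyte markers were between 23.7 and 286 RPKM, with Ptprc, Adgre1, Csf1r and Cd79a below 0.5 RPKM in every library. Other leukocyte markers were expressed, with Cd68 from 6.95 to 263 RPKM, Cd14 from 4.06 to 73 RPKM and Lyz2 from 0.139 to 26.4 RPKM. Epithelial markers summed to between 0.392 and 10.6 RPKM. The library names in the sample descriptions begin with one of 3 prefixes, here called A, B and C. Control replicate 1 and the 3 Fip200 KO libraries carried prefix A, control replicates 2 and 3 and Atg5 KO replicates 1 and 2 carried prefix B, and Atg5 KO replicate 3 and the 3 Atg7 KO libraries carried prefix C.

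The targeted genes were read in every library. Rb1cc1 was at 6.43, 8.27 and 7.73 RPKM in control, and at 5.18, 6.84 and 2.06 RPKM in Fip200 KO (adjusted p = 0.404, limma). Atg5 was at 14.2, 11.1 and 10.6 RPKM in control and at 8.53, 15.5 and 12.6 RPKM in Atg5 KO (adjusted p = 0.994, limma). Atg7 was at 18.4, 25 and 19.8 RPKM in control and at 5.4, 2.64 and 8.34 RPKM in Atg7 KO (log2 fold change −1.97 ± 0.37, SE, adjusted p = 0.0216, limma). Atg7 fell in Atg5 KO as well, at 9.99, 11.9 and 9.94 RPKM (log2 fold change −0.95, adjusted p = 0.0083, limma), and it was at 38.3, 12.4 and 8.23 RPKM in Fip200 KO. A lower Atg7 level was thus not particular to Atg7 KO, Rb1cc1 was lowest in Fip200 KO replicate 3, and the Atg5 values of Atg5 KO and control overlapped. A small CRISPR deletion can leave the transcript in place, so a level that did not move says nothing about the protein. The study checked the knockout of Fip200, Atg5 and Atg7 in its tumor cells by western blot.

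Promoter windows of the RefSeq table of GRCm38.p6, from 250 bases before to 50 bases after the annotated start, were found for 35 of the 39 genes. None was matched for Fbl, Npm1, Rrp12 and Bop1. The E-box CACGTG, which reads the same on both strands, was present for 8 of the 35 genes (22.9%), against 12.2% of 9227 tested genes and 8.09% of all 27025 genes with a window. The 8 genes were Ltv1, Mdn1, Nop2, Pes1, Tsr1, Utp18, Utp20 and Wdr43. The ETS core CCGGAAG, searched on both strands, was present for 12 of the 35 (34.3%), against 21.4% of tested genes. The NRF1 letters GCATGCG were found for 4 genes (11.4%, against 7.63%) and the YY1 letters AAGATGG for 2 genes (5.71%, against 8.53%). Both were searched on both strands, no motif contains another, and a match describes the window only.

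Windows of 3 genes with an E-box that were called in both Atg5 KO and Atg7 KO, and of Utp15, the member with a log2 fold change below 0 in each comparison, are shown 5′ to 3′ on the gene's strand, with CACGTG and CCGGAAG in capitals. They lie at chr4:32656869-32657168 (+ strand) for Mdn1, chr6:125131633-125131932 (+ strand) for Nop2, chr10:88826765-88827064 (− strand) for Utp20 and chr13:98262943-98263242 (− strand) for Utp15.
Mdn1: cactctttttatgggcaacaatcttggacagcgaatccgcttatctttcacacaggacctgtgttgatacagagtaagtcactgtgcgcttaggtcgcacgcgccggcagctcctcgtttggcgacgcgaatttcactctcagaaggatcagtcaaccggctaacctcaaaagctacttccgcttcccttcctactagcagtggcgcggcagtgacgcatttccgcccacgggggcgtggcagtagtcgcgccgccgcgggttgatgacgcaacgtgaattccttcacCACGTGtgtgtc
Nop2: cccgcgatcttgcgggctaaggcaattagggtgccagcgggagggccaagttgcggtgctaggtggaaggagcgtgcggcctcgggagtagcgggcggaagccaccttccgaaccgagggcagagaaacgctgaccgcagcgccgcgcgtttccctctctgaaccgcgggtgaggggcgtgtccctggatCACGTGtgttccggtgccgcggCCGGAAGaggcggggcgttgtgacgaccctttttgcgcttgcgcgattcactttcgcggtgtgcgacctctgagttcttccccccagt
Utp20: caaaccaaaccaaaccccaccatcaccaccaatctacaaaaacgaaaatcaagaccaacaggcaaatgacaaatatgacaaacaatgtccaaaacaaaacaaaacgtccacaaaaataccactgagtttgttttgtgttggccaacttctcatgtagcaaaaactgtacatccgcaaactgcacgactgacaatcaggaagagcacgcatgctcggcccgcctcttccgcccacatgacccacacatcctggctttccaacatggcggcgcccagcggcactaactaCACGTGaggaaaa
Utp15: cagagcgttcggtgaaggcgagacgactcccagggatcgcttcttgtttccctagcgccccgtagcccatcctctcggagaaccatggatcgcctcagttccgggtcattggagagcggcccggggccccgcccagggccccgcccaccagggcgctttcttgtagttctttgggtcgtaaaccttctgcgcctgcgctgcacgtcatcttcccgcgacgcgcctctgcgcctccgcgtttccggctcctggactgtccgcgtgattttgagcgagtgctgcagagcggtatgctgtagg
The E-box began 38 bases after the start in Mdn1 and 37 bases after it in Utp20, and 60 bases before it in Nop2, where the ETS core followed 38 bases before the start. The Utp15 window held neither. Tsr1, Ltv1, Utp18 and Pes1 also held an E-box and were called in no comparison. Conversely, Nop56, Nop58, Dkc1, Ncl, Ddx21 and Noc2l were called in both Atg5 KO and Atg7 KO and held no E-box.

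Across the 39 genes, levels were higher than in control in most KO libraries, but not to the same degree. The median of the genes, as log2 of RPKM plus 0.5 minus the control mean, was 0.12, −0.05 and −0.01 in control replicates 1, 2 and 3. The Fip200 KO libraries were at 0.26, 0.12 and 1.44, the Atg5 KO libraries at 0.83, 0.69 and 0.88, and the Atg7 KO libraries at 1.16, 0.55 and 0.76, while the median of all tested genes stayed between −0.05 and 0.06 in every library. Fip200 KO replicates 1 and 2 thus sat at or just above the control libraries, and Fip200 KO replicate 3 sat above every other library. The 3 Atg5 KO libraries lay close together, and the Atg7 KO libraries were spread more widely. The summed level of the 39 genes was 1243, 1109 and 1128 RPKM in control, 1459, 1274 and 3456 RPKM in Fip200 KO, 2096, 1948 and 2185 RPKM in Atg5 KO, and 2719, 1789 and 2093 RPKM in Atg7 KO. As a share of all counted reads this was 0.296% to 0.347% in control and up to 1.02% in Fip200 KO replicate 3.

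**Figure D1:**
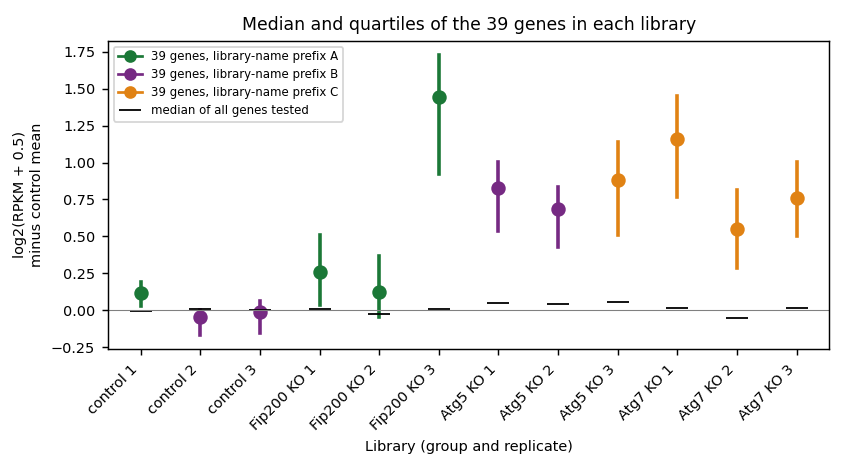
Median (point) and quartiles (bar) of the 39 genes in each library, as log2(RPKM + 0.5) minus the control mean, coloured by the prefix of the library name, with the median of all tested genes as a short line. Fip200 KO replicates 1 and 2 are at 0.26 and 0.12 and replicate 3 is at 1.44, while the Atg5 KO libraries lie between 0.69 and 0.88 and the Atg7 KO libraries between 0.55 and 1.16.

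**Figure D2:**
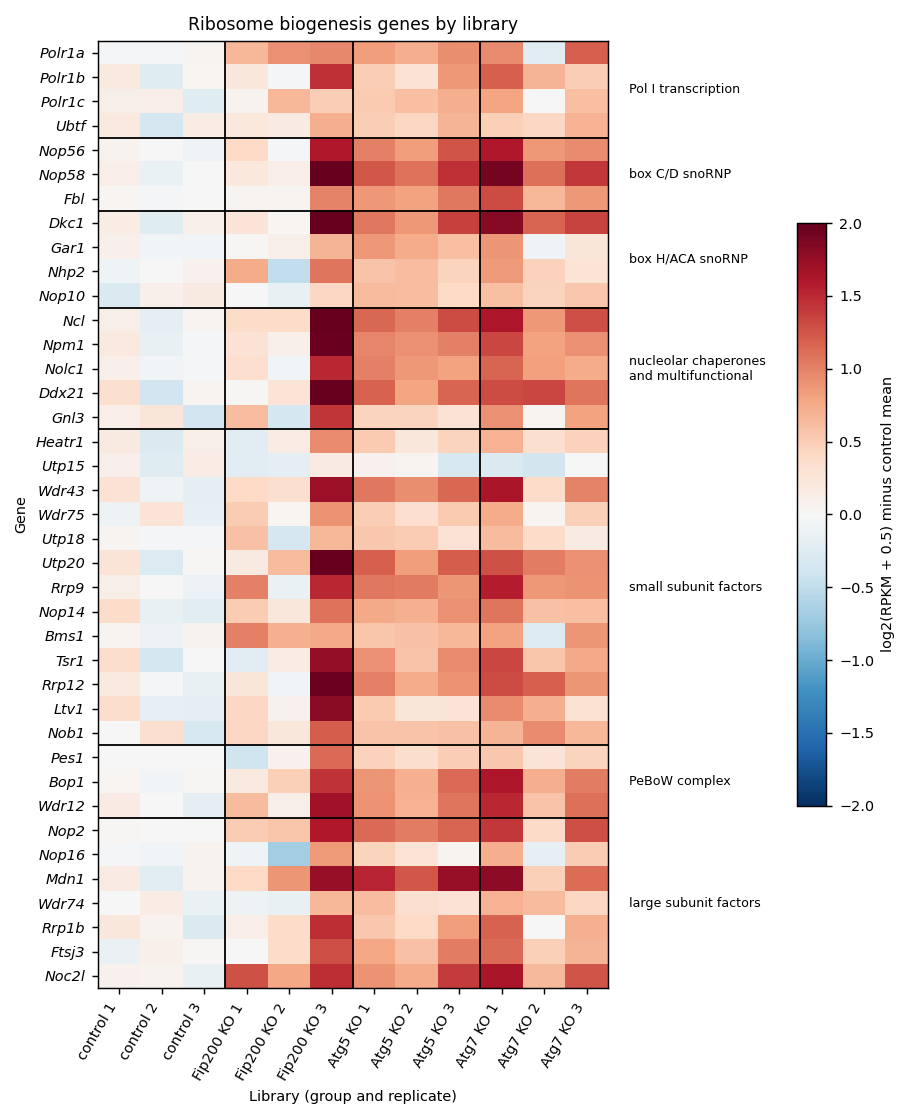
Each of the 39 genes (rows, grouped by role) in each of the 12 libraries (columns), as log2(RPKM + 0.5) minus the mean of the 3 control libraries, with red for higher and blue for lower values and the colour scale ending at −2 and 2. Fip200 KO replicate 3 is above all controls for all 39 genes, while Utp15 stays near its control level in most libraries.

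In Fip200 KO compared to control, 2 of the 39 genes passed the threshold, both higher, and 1 of them, Noc2l, was also called higher. Of all 11803 genes tested, 0.356% passed in the higher direction and 0.347% were called higher. No member was lower past the threshold, where 1.69% of all genes were. The median log2 fold change of the 39 genes was 0.62, against 0.02 over all genes tested, and 38 of the 39 were above 0, against 51.2% of all genes. Values of all 3 KO libraries exceeded all 3 controls for 10 genes, namely Polr1a, Nop58, Fbl, Ncl, Wdr43, Bms1, Bop1, Nop2, Mdn1 and Noc2l. Such a lack of overlap was seen for 11.7% of all genes in the higher direction, and for none of the 39 in the lower direction (12.4% of all genes). At an unadjusted p under 0.05, 5 of the 39 genes were higher, against 6.61% of all genes. With the prefix as a term in a fit of all 12 libraries, the median was 0.52 and 0 of the 39 genes passed by limma, with 1 at an unadjusted p under 0.05, where 0.0163% of all genes were higher past the threshold.

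Fip200 KO replicate 3 set much of these values. It was the highest of its group for 37 of the 39 genes (94.9%), against 39.9% of 11608 genes tested in all comparisons, and it exceeded the mean of the other replicates by a median log2 of 1.11 over the 39 genes, from −0.09 for Bms1 to 2.56 for Ddx21, against 0.03 over all genes. Without it, the median log2 fold change of the 39 genes fell to 0.18, and 3 genes passed the threshold, against 1.93% of all genes in the higher direction, namely Polr1a, Bms1 and Noc2l (adjusted p = 0.0802, 0.0742 and 0.0713, limma). Leaving out any other library of this comparison left 0 of the 39 genes past the threshold by limma, with 3 to 18 at an unadjusted p under 0.05, and without control replicate 2 or 3 no gene of the whole table passed. Both Fip200 KO replicates 1 and 2 were above all controls for 10 of the 39 genes, where 18.8% of all genes were. This library also had the lowest Rb1cc1 and the highest cycling-cell marker sum, 802 RPKM against 363 to 688 RPKM in the other 11 libraries. The part of these differences in the levels of the 39 genes was not tested. Its prefix was that of the other Fip200 KO libraries, and the 3 Fip200 KO libraries together, replicate 3 included, gave a median of 0.52 over the 39 genes against the 1 control library of that prefix.

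**Figure D3:**
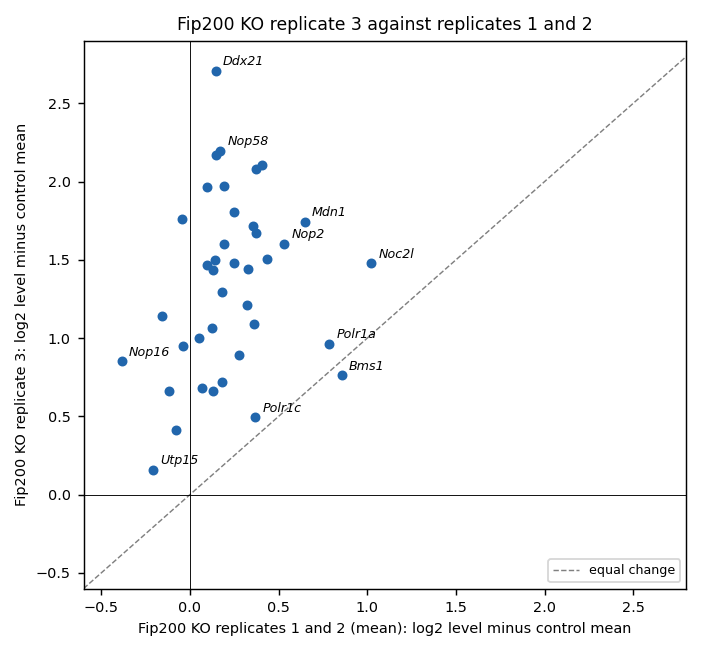
Each point is 1 of the 39 genes, with the mean of Fip200 KO replicates 1 and 2 on the horizontal axis and Fip200 KO replicate 3 on the vertical axis, both as log2(RPKM + 0.5) minus the control mean, and the dashed line marks equal change. Most points lie well above the line, with medians of 0.18 and 1.44, while Polr1a (0.79 and 0.96) and Bms1 (0.86 and 0.76) lie close to it.

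In Atg5 KO compared to control, 34 of the 39 genes passed the threshold, all higher, against 22.9% of 11833 genes tested in that direction. Of these, 10 were also called higher, against 4.31% of all genes, namely Nop56, Nop58, Dkc1, Ncl, Ddx21, Wdr43, Utp20, Nop2, Mdn1 and Noc2l. No member was lower past the threshold, where 18.7% of all genes were. The 5 genes that did not pass were Gnl3, Heatr1, Utp15, Ltv1 and Nop16. The 3 KO libraries lay above all controls for 36 genes, against 28.4% of all genes, and below all controls for none (22% of all genes). The median log2 fold change was 0.80, against 0.06 over all genes. Within prefix B, with 2 control and 2 Atg5 KO libraries, 34 of the 39 genes passed, against 23.2% of all genes in the higher direction, 10 were called, against 4.99%, and the median was 0.82. These 2 Atg5 KO libraries were more alike than any other pair of replicates in the series. In a fit of all 12 libraries, 16 of the 39 genes passed, against 9.83% of all genes, and 8 were called, against 3.26%. With the prefix as a term in that fit, the median was 0.82 and 0 of the 39 passed by limma, with 10 at an unadjusted p under 0.05, where 2.73% of all genes were higher past the threshold. The Atg5 KO estimate of that fit rests on the prefix B libraries alone and is the same as within prefix B. These 2 fits differ in the spread used and in the genes tested, so 34 against 0 is not a change in the estimate. Called genes numbered 6 without control replicate 2, against 3.58% of all genes, and 6 without Atg5 KO replicate 3, against 3.85%. Cycling-cell markers were also higher in Atg5 KO than in control, with sums of 363, 545 and 553 RPKM in control and 679, 688 and 576 RPKM in Atg5 KO, and 7 of their 10 genes rose. Among the other lists, 5 of 10 endothelial, 2 of 5 tested lymphatic and 1 of 3 tested fibroblast or mural markers were higher and 2 of 3 tested leukocyte markers were lower, with leukocyte sums of 131, 108 and 134 RPKM in control and 26.2, 27.5 and 30.5 RPKM in Atg5 KO. The part of these markers in the result was not tested.

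In Atg7 KO compared to control, 27 of the 39 genes passed the threshold, all higher, against 11.3% of 11784 genes tested in that direction. Of these, 14 were called higher, against 3.29% of all genes. They were Nop56, Nop58, Dkc1, Ncl, Npm1, Ddx21, Utp20, Rrp9, Rrp12, Bop1, Wdr12, Nop2, Mdn1 and Noc2l. No member was lower past the threshold, where 13.7% of all genes were. The KO libraries lay above all controls for 29 genes, against 19.2% of all genes, and below all controls for none (20.4% of all genes). The median log2 fold change was 0.76, against −0.01 over all genes. All 3 Atg7 KO libraries carried prefix C and no control did, so Atg7 KO and prefix cannot be told apart within a prefix. In a fit of all 12 libraries, 17 of the 39 genes passed, against 8.76% of all genes in the higher direction, and 12 were called, against 2.86%. With the prefix as a term in that fit, the median was 0.75 and 0 of the 39 genes passed by limma, with 0 at an unadjusted p under 0.05, where 0.0654% of all genes were higher past the threshold. Atg7 KO replicate 1 was the highest of its group for 33 of the 39 genes, against 35.9% of all genes, and replicate 2 the lowest for 29, against 46.9%. Without replicate 1, 13 genes passed, against 3.11% of all genes, and 5 were called, against 1.68%. Without replicate 2, 35 passed, against 16.5%, and 18 were called, against 4.87%. Without control replicate 2, 15 passed, against 4.39%, and 9 were called, against 2.2%. Without control replicate 3, 9 passed, against 2.42%, and 7 were called, against 1.78%. The cycling-cell markers summed to 661, 593 and 620 RPKM in Atg7 KO, with 5 of 10 higher than control. In its own assays, the study reported fewer colonies from Atg5 KO and Atg7 KO cells and reduced proliferation of Fip200 KO cells. In the other lists, 1 of 5 tested lymphatic and 1 of 3 tested fibroblast or mural markers were higher and 2 of 3 tested leukocyte markers were lower, with leukocyte sums of 27.2, 24.1 and 31.9 RPKM, and no endothelial marker passed. The part of these markers in the result was not tested.

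**Figure D4:**
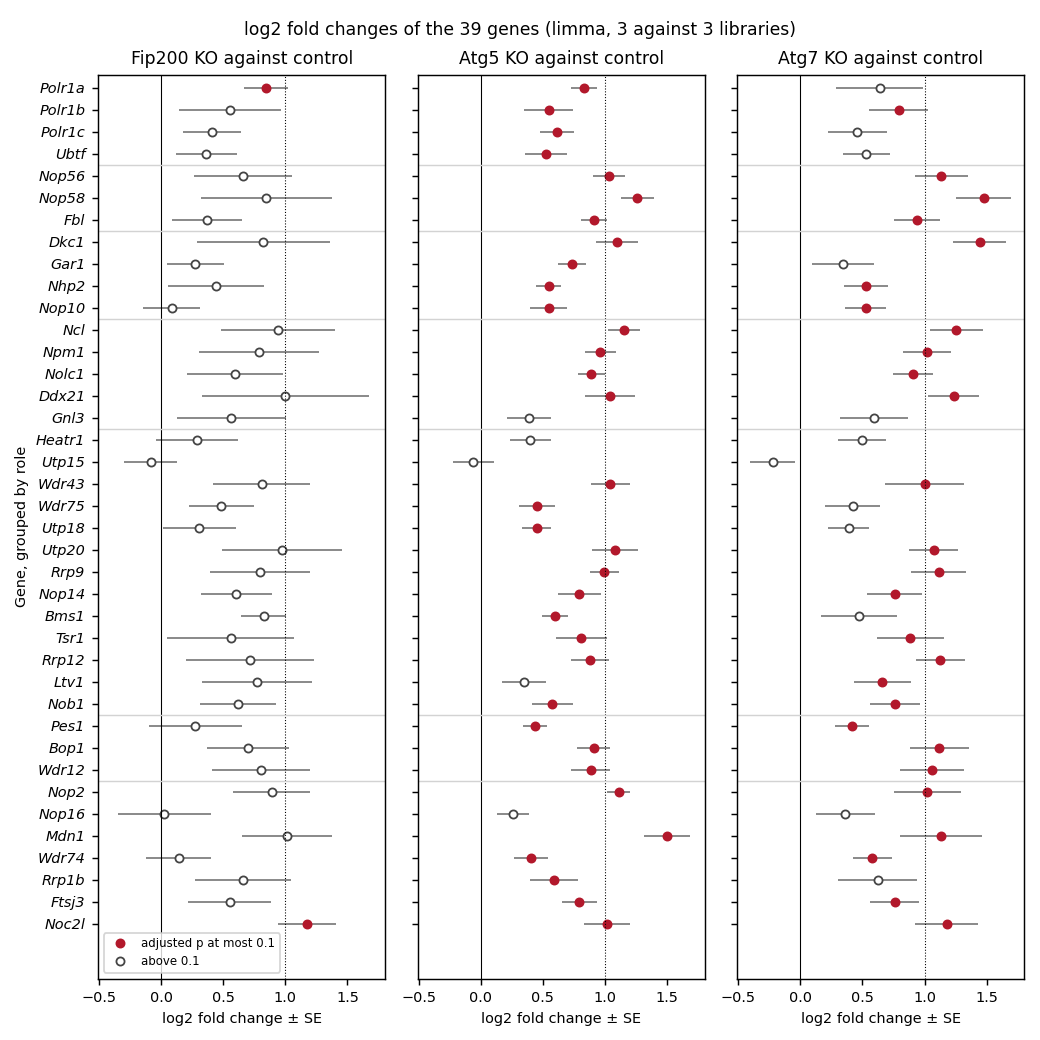
log2 fold change with its standard error for each of the 39 genes, grouped by role, in each KO against the same 3 control libraries. Filled points have an adjusted p of at most 0.1 (2, 34 and 27 genes), the solid line marks 0 and the dotted line a log2 fold change of 1.

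Of the 4 genes of RNA polymerase I transcription, 4 passed in Atg5 KO, 1 in Atg7 KO (Polr1b) and 1 in Fip200 KO (Polr1a). The shares of all genes higher past the threshold were 22.9%, 11.3% and 0.356%. Polr1a encodes the largest catalytic subunit of RNA polymerase I. Its level was 18.3, 18.0 and 19.4 RPKM in control, 29.6, 35.3 and 36.7 RPKM in Fip200 KO, 33.4, 31.0 and 36.0 RPKM in Atg5 KO, and 36.1, 15.8 and 43.3 RPKM in Atg7 KO. Every Fip200 KO and Atg5 KO library exceeded all controls, while Atg7 KO replicate 2 lay below them. Polr1a rose by a log2 of 0.84 ± 0.18 (SE) in Fip200 KO (adjusted p = 0.0995, limma) and of 0.83 ± 0.10 in Atg5 KO (adjusted p = 0.00497, limma), and in Atg7 KO the difference was 0.64 ± 0.35 (adjusted p = 0.24, limma). The Fip200 KO value was close to the threshold, and under 15 of the 16 alternatives run it did not pass, with adjusted p from 0.0802 to 0.736. Polr1b, the other large catalytic subunit, rose in Atg5 KO and Atg7 KO by a log2 of 0.55 and 0.79. Polr1c, which RNA polymerases I and III share, and Ubtf, the factor that bends ribosomal DNA for initiation, rose in Atg5 KO by a log2 of 0.61 and 0.53.

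The 3 members that are core proteins of box C/D particles all passed in Atg5 KO (22.9% of all genes higher) and in Atg7 KO (11.3%), and none passed in Fip200 KO (0.356%). Nop58, a scaffold of these particles, was at 36.6, 30.4 and 33.8 RPKM in control, 39, 36.6 and 156 RPKM in Fip200 KO, 79.8, 71.5 and 92.8 RPKM in Atg5 KO, and 128, 72.1 and 89.8 RPKM in Atg7 KO. All Atg5 KO and Atg7 KO values lay far above the controls, while Fip200 KO replicate 2 equalled the highest control to the digits shown. The log2 fold change was 1.26 ± 0.13 in Atg5 KO (adjusted p = 0.00372, limma) and 1.48 ± 0.22 in Atg7 KO (adjusted p = 0.0135, limma), and in Fip200 KO it was 0.85 ± 0.53 (adjusted p = 0.453, limma). Its partner Nop56 was the most abundant of the group, at 79.8, 75.2 and 72.3 RPKM in control, 100.0, 74.8 and 230.0 RPKM in Fip200 KO, 152, 136 and 181 RPKM in Atg5 KO, and 231, 138 and 146 RPKM in Atg7 KO. Nop56 rose by a log2 of 1.03 ± 0.13 in Atg5 KO and 1.14 ± 0.21 in Atg7 KO. Fbl, fibrillarin, the 2′-O-methyltransferase of these particles, rose from 53.1 ± 1.3 RPKM (SD, n = 3) in control to 101 ± 8.95 in Atg5 KO and 104 ± 24.3 in Atg7 KO, and was at 54.9, 55.2 and 107 RPKM in Fip200 KO.

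**Figure D5:**
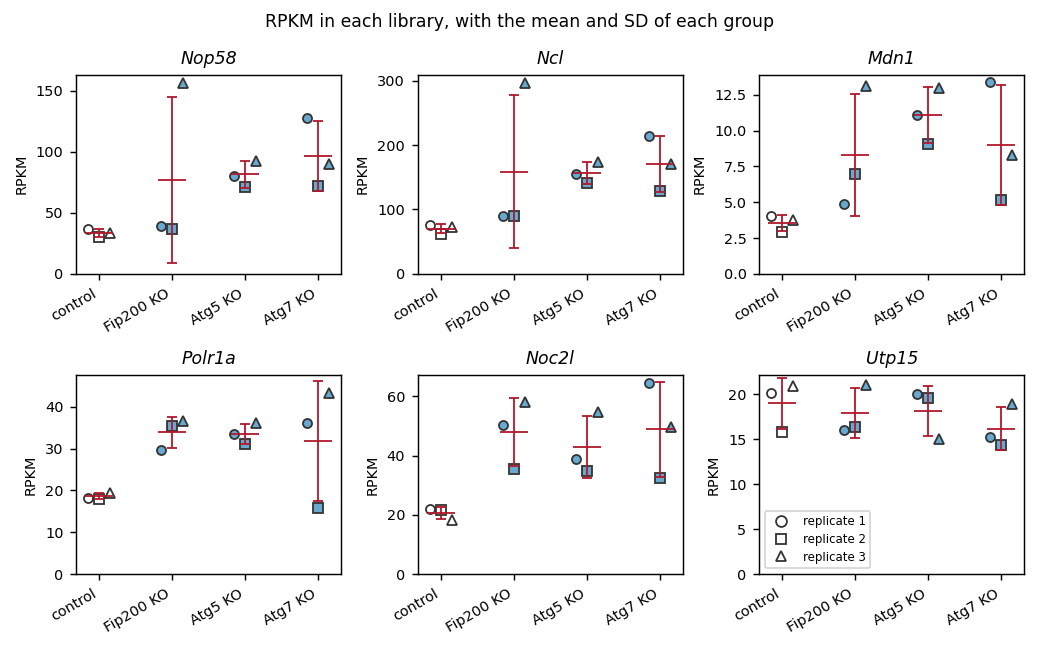
RPKM of Nop58, Ncl, Mdn1, Polr1a, Noc2l and Utp15 in each library (symbols mark the replicate number, open symbols are control), with the mean and SD of each group of 3 as red lines. Nop58 and Ncl show 1 high Fip200 KO library, Polr1a and Noc2l are above control in all 3 Fip200 KO libraries, and the groups overlap for Utp15.

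Box H/ACA particles, with 4 genes here, isomerise uridine to pseudouridine and stabilise telomerase RNA. All 4 genes passed in Atg5 KO (22.9% of all genes higher), 3 in Atg7 KO (11.3%) and none in Fip200 KO (0.356%). Dkc1, dyskerin, is the pseudouridine synthase of the group. It was at 13.2, 10.1 and 12.8 RPKM in control, 14.4, 12.3 and 55.6 RPKM in Fip200 KO, 25.3, 22.3 and 31.7 RPKM in Atg5 KO, and 43.5, 27.4 and 31.2 RPKM in Atg7 KO. Its Atg5 KO and Atg7 KO values were all higher than control, and the high value in Fip200 KO was that of 1 library. Dkc1 rose by a log2 of 1.10 ± 0.17 in Atg5 KO (adjusted p = 0.00775, limma) and 1.45 ± 0.21 in Atg7 KO (adjusted p = 0.0127, limma). Its partners changed less. Nop10 was at 36.7, 48.2 and 50.5 RPKM in control, 44.6, 40.0 and 59.8 RPKM in Fip200 KO, 69.3, 68.7 and 59.3 RPKM in Atg5 KO, and 67.9, 60.8 and 65.5 RPKM in Atg7 KO. It rose by a log2 of 0.55 in Atg5 KO and 0.53 in Atg7 KO, and its value in Fip200 KO was 0.09 ± 0.23 (adjusted p = 0.878, limma). Nhp2 rose by 0.55 and 0.53 in the same KO cells. Gar1 was at 24.2, 21.7 and 21.7 RPKM in control, 22.8, 24.5 and 36.4 RPKM in Fip200 KO, 41.4, 37.9 and 34.5 RPKM in Atg5 KO, and 42.0, 21.3 and 26.6 RPKM in Atg7 KO, so that it was clear of the controls only in Atg5 KO (log2 fold change 0.74, adjusted p = 0.00745, limma).

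Of 5 nucleolar chaperones and multifunctional proteins, 4 passed in Atg5 KO (22.9% of all genes higher), 4 in Atg7 KO (11.3%) and none in Fip200 KO (0.356%). Npm1, nucleophosmin, a histone and ribosome chaperone, had the highest level of all 39 genes. It was at 310, 244 and 264 RPKM in control, 331, 291 and 1070 RPKM in Fip200 KO, 533, 511 and 546 RPKM in Atg5 KO, and 689, 474 and 510 RPKM in Atg7 KO. The Atg5 KO and Atg7 KO values were all above control, by a log2 of 0.96 ± 0.12 (adjusted p = 0.00495, limma) and 1.02 ± 0.19 (adjusted p = 0.022, limma). Npm1 has many processed pseudogenes, and how reads that match several places were counted is not stated, so its level is less certain than the others. Ncl, nucleolin, which binds nascent ribosomal RNA, was at 75.8, 61.8 and 72.7 RPKM in control, 90.5, 90.3 and 297 RPKM in Fip200 KO, 155, 141 and 174 RPKM in Atg5 KO, and 215, 128 and 171 RPKM in Atg7 KO. Ncl was above all controls in every KO library, and rose by a log2 of 1.15 ± 0.13 in Atg5 KO (adjusted p = 0.00406, limma) and 1.26 ± 0.21 in Atg7 KO (adjusted p = 0.0179, limma), with 0.94 ± 0.46 in Fip200 KO (adjusted p = 0.358, limma).

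Ddx21, an RNA helicase of RNA polymerase I and II transcription, had the largest standard error of the log2 fold change among the 39 genes in Fip200 KO. Its level was 26.9, 16.4 and 22.4 RPKM in control, 21.7, 26.1 and 143 RPKM in Fip200 KO, 49.1, 37.5 and 48.6 RPKM in Atg5 KO, and 53.8, 55.0 and 45.6 RPKM in Atg7 KO. Fip200 KO replicates 1 and 2 lay inside the control range, and the group's log2 fold change of 1.00 ± 0.67 did not pass (adjusted p = 0.485, limma). Ddx21 rose by 1.04 in Atg5 KO and 1.24 in Atg7 KO. Nolc1, a chaperone that carries small nucleolar ribonucleoproteins, rose by 0.89 and 0.91. Gnl3, nucleostemin, a GTPase of stem and tumor cells, gave 0.39 ± 0.18 in Atg5 KO (adjusted p = 0.133, limma) and 0.59 ± 0.27 in Atg7 KO (adjusted p = 0.176, limma).

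The 13 small subunit factors were the largest group. Past the threshold were 10 in Atg5 KO (22.9% of all genes higher), 8 in Atg7 KO (11.3%) and none in Fip200 KO (0.356%). Wdr43, Heatr1, Utp15 and Wdr75 belong to the complex that first binds the precursor RNA. Wdr43 was at 23.6, 18.0 and 16.6 RPKM in control, 25.3, 24.0 and 64.1 RPKM in Fip200 KO, 40.4, 36.9 and 43.1 RPKM in Atg5 KO, and 60.8, 24.9 and 38.7 RPKM in Atg7 KO. Every KO library was above the controls, if only slightly for Fip200 KO replicates 1 and 2 and Atg7 KO replicate 2. Wdr43 rose by a log2 of 1.04 ± 0.15 in Atg5 KO (adjusted p = 0.00671, limma) and 1.00 ± 0.32 in Atg7 KO (adjusted p = 0.0782, limma), the latter just under the size that counts as called. Utp15 of the same complex was at 20.2, 15.8 and 20.9 RPKM in control, 16.1, 16.4 and 21.1 RPKM in Fip200 KO, 20, 19.6 and 15 RPKM in Atg5 KO, and 15.3, 14.4 and 18.9 RPKM in Atg7 KO. The groups overlapped in each comparison, and its log2 fold changes were −0.09 ± 0.21, −0.06 ± 0.17 and −0.22 ± 0.18 (adjusted p = 0.869, 0.808 and 0.429, limma). Heatr1 did not pass in any comparison, with log2 fold changes of 0.29, 0.40 and 0.50, and Wdr75 rose in Atg5 KO by 0.45.

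Utp20, a large scaffold protein of the early small subunit particle, was at 8.96, 6.08 and 7.52 RPKM in control, 8.48, 11.8 and 33.7 RPKM in Fip200 KO, 17.7, 13.6 and 17.9 RPKM in Atg5 KO, and 18.8, 15.7 and 14.4 RPKM in Atg7 KO. It rose by a log2 of 1.08 ± 0.18 in Atg5 KO (adjusted p = 0.009, limma) and 1.07 ± 0.20 in Atg7 KO (adjusted p = 0.021, limma). Rrp9, the protein specific to the U3 particle that guides the first cuts, was at 13.1, 12 and 11 RPKM in control, 24.6, 10.9 and 35.1 RPKM in Fip200 KO, 25.6, 25.3 and 22.6 RPKM in Atg5 KO, and 36.8, 22.4 and 22.8 RPKM in Atg7 KO. Both genes were clear of the controls in Atg5 KO and Atg7 KO and overlapped them in Fip200 KO. Rrp9 rose by 1.00 ± 0.12 in Atg5 KO, just under the size for a call, and by 1.12 ± 0.22 in Atg7 KO. Rrp12, a factor of particle export, had the lowest read count of the 39 genes in any library and was at 4.46, 3.72 and 3.42 RPKM in control, 4.65, 3.68 and 16.5 RPKM in Fip200 KO, 8.20, 6.73 and 7.61 RPKM in Atg5 KO, and 10.3, 9.44 and 7.49 RPKM in Atg7 KO. Rrp12 rose by 0.88 and 1.13 in the latter KO cells (adjusted p = 0.00964 and 0.0187, limma).

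Bms1, a GTPase that drives an early step of small subunit assembly, differed from the pattern of the group. It was at 23.9, 21.2 and 24.3 RPKM in control, 46.9, 38.0 and 39.6 RPKM in Fip200 KO, 34.2, 34.8 and 36.8 RPKM in Atg5 KO, and 40.8, 19.1 and 43.1 RPKM in Atg7 KO. Its 3 Fip200 KO values were alike and all above control, its Atg5 KO values lay below all of them, and Atg7 KO replicate 2 fell below the controls. Its log2 fold change reached 0.83 ± 0.18 in Fip200 KO (adjusted p = 0.106, limma) and 0.60 ± 0.10 in Atg5 KO (adjusted p = 0.01, limma). Tsr1, the Bms1 relative that binds late particles, and Nop14 rose in Atg5 KO and Atg7 KO by between 0.76 and 0.88. Nob1, the nuclease that makes the end of the small subunit RNA, rose by 0.57 and 0.76. Ltv1, an export adaptor, was at 25.4, 17.7 and 17.3 RPKM in control, 26.6, 21.0 and 70.7 RPKM in Fip200 KO, 28.8, 23.6 and 23.9 RPKM in Atg5 KO, and 38.5, 33.2 and 24.6 RPKM in Atg7 KO. Its values overlapped control in each comparison, and it passed in Atg7 KO (0.66 ± 0.23, adjusted p = 0.095, limma). Utp18 rose in Atg5 KO by 0.45.

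The PeBoW complex, with 3 genes here, acts in the maturation of the large subunit RNAs. All 3 genes passed in Atg5 KO (22.9% of all genes higher) and in Atg7 KO (11.3%), and none in Fip200 KO (0.356%). Bop1 was at 17.2, 16 and 17 RPKM in control, 19.2, 23.4 and 46.3 RPKM in Fip200 KO, 31.4, 27.8 and 37.3 RPKM in Atg5 KO, and 52.6, 27.9 and 34.4 RPKM in Atg7 KO. Wdr12 was at 7.40, 6.58 and 5.70 RPKM in control, 10.3, 7.14 and 21.9 RPKM in Fip200 KO, 12.6, 10.8 and 14.2 RPKM in Atg5 KO, and 19.4, 9.97 and 14.5 RPKM in Atg7 KO. Both were above every control in Atg5 KO and Atg7 KO, and rose by 0.91 and 0.89 in Atg5 KO and by 1.12 and 1.06 in Atg7 KO. Pes1, the most abundant of the group, was at 31.3, 31.3 and 31.7 RPKM in control, 23.7, 33.4 and 69.8 RPKM in Fip200 KO, 43.7, 40.1 and 44.4 RPKM in Atg5 KO, and 46.0, 37.6 and 43.0 RPKM in Atg7 KO. Its controls were nearly equal, and its smaller changes of 0.43 ± 0.10 in Atg5 KO (adjusted p = 0.0184, limma) and 0.41 ± 0.14 in Atg7 KO (adjusted p = 0.0872, limma) passed.

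Of 7 large subunit factors, 6 passed in Atg5 KO (22.9% of all genes higher), 5 in Atg7 KO (11.3%) and 1 in Fip200 KO (0.356%). Noc2l, the mammalian counterpart of a yeast factor that moves large subunit precursors through the nucleus, is also known as an inhibitor of histone acetyltransferases. It was at 21.8, 21.6 and 18.4 RPKM in control, 50.3, 35.3 and 58.0 RPKM in Fip200 KO, 38.8, 34.8 and 54.7 RPKM in Atg5 KO, and 64.5, 32.5 and 49.7 RPKM in Atg7 KO. All 9 KO libraries lay above all controls. Noc2l rose in all KO cells, by a log2 of 1.17 ± 0.23 with Fip200 KO (adjusted p = 0.0864, limma), of 1.02 ± 0.18 with Atg5 KO (adjusted p = 0.0108, limma) and of 1.18 ± 0.25 with Atg7 KO (adjusted p = 0.0288, limma). The Fip200 KO call was lost under 9 of the 16 alternatives run, with adjusted p from 0.038 to 0.568 and log2 fold changes from 1.02 to 1.38.

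Mdn1, midasin, a giant ATPase that strips assembly factors from the pre-60S particle, had the largest log2 fold change of the 39 genes in Atg5 KO. Its level was 4.05, 2.95 and 3.74 RPKM in control, 4.87, 7 and 13.1 RPKM in Fip200 KO, 11.1, 9.07 and 13.0 RPKM in Atg5 KO, and 13.4, 5.17 and 8.32 RPKM in Atg7 KO. No KO library overlapped the controls, though Fip200 KO replicate 1 and Atg7 KO replicate 2 came close. The log2 fold change was 1.5 ± 0.18 in Atg5 KO (adjusted p = 0.00478, limma), 1.13 ± 0.33 in Atg7 KO (adjusted p = 0.0625, limma) and 1.01 ± 0.36 in Fip200 KO (adjusted p = 0.246, limma). Nop2, a methyltransferase of the large subunit RNA, was at 24.8, 24.1 and 24.2 RPKM in control, 35.0, 36 and 75 RPKM in Fip200 KO, 54.2, 50.2 and 55.1 RPKM in Atg5 KO, and 65.5, 31.8 and 60.0 RPKM in Atg7 KO. It was above all controls in every KO library, and its 1.11 ± 0.10 in Atg5 KO had the lowest adjusted p of the 39 genes in that comparison (0.00305, limma).

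Nop16 was among the least changed large subunit factors, at 24.8, 24.3 and 26.3 RPKM in control, 23.8, 15.4 and 45.8 RPKM in Fip200 KO, 34.3, 30.6 and 26.2 RPKM in Atg5 KO, and 42.1, 22.4 and 36.1 RPKM in Atg7 KO. The groups overlapped each time, with log2 fold changes of 0.03 ± 0.37, 0.26 ± 0.13 and 0.36 ± 0.24, none past the threshold. Ftsj3, a methyltransferase that acts on large subunit precursors, rose in Atg5 KO and Atg7 KO by 0.80 and 0.76, and Wdr74, which works with the exosome on these precursors, rose by 0.40 and 0.58. Rrp1b rose in Atg5 KO by 0.59.

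Differences between KO cells were tested directly in 1 fit of all 12 libraries, where the controls enter the estimate of the spread. None of the 39 genes, and none of the 12233 genes tested, passed in any of the 3 comparisons by limma, and percent called was 0 in each. At an unadjusted p under 0.05, 1 of the 39 genes was higher in Atg5 KO than in Fip200 KO (Nop10, against 4.36% of all genes), 2 were higher in Atg7 KO than in Fip200 KO (Fbl and Nop10, against 3.26%) and 0 were higher in Atg7 KO than in Atg5 KO (against 1.51%). The median difference over the 39 genes was 0.18, 0.19 and 0.03. Bms1 was lower in every Atg5 KO library than in every Fip200 KO library (−0.23 ± 0.26), where 5.91% of all genes showed no overlap in that direction, and 0 of the 39 showed none in the other (8.44%). Nop10 was higher in every Atg7 KO than in every Fip200 KO library (0.44 ± 0.18, 3.86% of all genes), with 0 in the other direction (4.37%), and Nob1 was higher in every Atg7 KO than in every Atg5 KO library (0.19 ± 0.25, 5.38% of all genes), with 0 in the other direction (11.2%).

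The count of 0 against Fip200 KO depended on replicate 3 of that group. Without it, the median difference rose to 0.58 in both comparisons, and 11 of the 39 genes were higher in Atg5 KO than in Fip200 KO past the threshold, namely Nop56, Nop58, Fbl, Dkc1, Nop10, Ncl, Npm1, Nolc1, Ddx21, Rrp12 and Pes1, and in Atg7 KO these and Wdr74 were higher, 12 in all. Of all genes, 3.17% and 3.44% were higher past the threshold in these fits. Both comparisons then share the same 2 Fip200 KO libraries. No Atg5 KO or Atg7 KO library carried the prefix of the Fip200 KO libraries, so KO and prefix cannot be told apart within a prefix in these comparisons. With the prefix as a term as well, an alternative chosen after seeing the data, the median differences were 0.66 and 0.67 and 0 of the 39 genes passed by limma, with 11 and 5 at an unadjusted p under 0.05, where 6 and 7 genes of the whole table passed. Nop58 differed by 1.09 ± 0.22 (adjusted p = 0.062, limma) and 1.30 ± 0.22 (adjusted p = 0.0385, limma), and Dkc1 by 0.95 ± 0.23 (adjusted p = 0.0782, limma) and 1.30 ± 0.23 (adjusted p = 0.0385, limma). Of the 10 members above all controls in both Fip200 KO replicates 1 and 2, Nop58, Fbl and Ncl were among these genes and the other 7 were not.

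A wider list of 101 further genes of the pathway was measured for background, and all 101 were tested. In Atg5 KO, 66 of them were higher past the threshold (22.9% of all genes) and 2 lower (18.7%), and 33 were higher (11.3%) and 0 lower (13.7%) in Atg7 KO. The number higher in Atg5 KO was 42 without Atg5 KO replicate 1 and 27 in a fit of all 12 libraries. In Atg7 KO it was 12 without control replicate 2, 7 without control replicate 3, 13 without Atg7 KO replicate 1 and 53 without Atg7 KO replicate 2. With the prefix as a term it was 5 in Atg5 KO and 0 in Atg7 KO by limma, with 20 and 6 genes at an unadjusted p under 0.05. Within prefix B, which gives the same Atg5 KO estimate as that term, it was 62. None passed in Fip200 KO (0 by limma), with 15 higher at an unadjusted p under 0.05 (6.61% of all genes). In a fit of all 12 libraries 6 passed higher in Fip200 KO, where 1155 genes of the whole table passed in either direction. There were 30 at an unadjusted p under 0.05 in that fit, 4 without control replicate 2 and 3 without control replicate 3. Their median log2 fold change was 0.45 in both Atg5 KO and Atg7 KO and 0.38 with Fip200 KO, where it was 0.14 without replicate 3. Of them, 0 were called higher with Fip200 KO and 5 with each of the others, near the 0.347%, 4.31% and 3.29% of all genes. The highest averages were those of Nol9, a kinase of the large subunit precursor, Rcl1, a small subunit factor, and Nle1, a large subunit factor. Nol9 was at 8.63, 6.83 and 7.89 RPKM in control, and its mean was 17.5 RPKM in Fip200 KO, 20.5 RPKM in Atg5 KO and 19.2 RPKM in Atg7 KO. Nol9 rose by 1.33 ± 0.17 in Atg5 KO (adjusted p = 0.00483, limma) and 1.20 ± 0.25 in Atg7 KO (adjusted p = 0.028, limma). Rcl1 rose by 1.14 and 1.38 and Nle1 by 0.93 and 1.24 in the same cells. The lowest averages were those of Ttf1, the termination factor of RNA polymerase I, Riok1, a kinase of late small subunit particles, and Gnl3l, a relative of Gnl3, of which only Gnl3l passed, lower by 0.40 in Atg5 KO (adjusted p = 0.0289, limma).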

How the data were processed

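RNA from 12 samples of mouse 562 cells, 3 per group, was made into directional libraries, and GEO's labels gave each sample its group. The authors trimmed adapters, aligned reads with TopHat2, counted reads per known transcript with Bioconductor packages and compared groups with a negative binomial model. The genome build, annotation and handling of multi-mapping reads are not given in the sources used here. The authors deposited 1 table per KO with RPKM values per library, which the header does not name as such. The unit was read from the values, because whole reads could be recovered from them for all 14831 genes with reads. The group means that the authors deposited are a signal on the scale of normalized reads. They were used only to fix a common factor for 19 genes and to check the recovered reads, within a relative tolerance of 0.0001. The tables also hold the authors' fold changes and p-values, which were not used.

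Levels were analysed as log2 of RPKM plus 0.5 with limma 3.58.1 in R 4.3.3, with variances moderated along a trend with expression. Genes needed an RPKM of 0.5 or more in 3 or more libraries of the fit. The Benjamini-Hochberg adjustment covered all genes tested. The fit of a KO against control held those 6 libraries, and the fit of KO cells against each other held all 12. Medians and counts over the members are descriptions set beside those of all genes.

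The study describes the RNA samples of each line as independent replicates and says of its experiments in general that they were biological replicates unless noted. Separate cultures are not named for these libraries, so p-values measure the spread between these samples, which may in part be technical. No library was a duplicate of another, with a lowest chi-square of 8.66 per degree of freedom for any pair of replicates. That pair was Atg5 KO replicates 1 and 2, and every other pair was between 51.4 and 316. The spread of Atg5 KO, and so its p-values, rests in part on this close pair. Library totals differed by up to 1.37 times. Alternatives were other pseudocounts, scalings and filters, limma-voom on the recovered reads, the library-name prefix, a replicate block and leaving out each library. The 39 members, the wider list of 101 genes and the marker lists were chosen with earlier results of these data known. Values in every library were given for members called in any KO, for the 3 highest and 3 lowest log2 fold changes per KO and for the most abundant member of each role. Rb1cc1, Atg5 and Atg7 were given as the targeted genes, and the 3 highest and 3 lowest averages of the wider list were named. Bms1 and Fbl were described further after their values were seen.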

Additional observations from a re-analysis of the deposited data

How the results depend on the processing

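Against control, the median log2 fold change of the 39 genes stayed above 0 under every alternative run, and it moved most when Fip200 KO replicate 3 was left out. Leaving out 1 library at a time, it ran from 0.183 to 0.85 in Fip200 KO, from 0.731 to 0.883 in Atg5 KO and from 0.599 to 0.94 in Atg7 KO. Between KO cells the median was small and turned below 0 under some alternatives, down to −0.029 for Atg5 KO against Fip200 KO, −0.034 for Atg7 KO against Fip200 KO and −0.106 for Atg7 KO against Atg5 KO.

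Few members passed in Fip200 KO, and their number changed with most settings. It was 1 with a pseudocount of 0.1 or of 1, with median-of-ratios or upper-quartile scaling and with limma-voom on recovered reads. It was 0, and 0 were called, with no filter on low values, with a term for the prefix of the library names and with no variance trend. Leaving out 1 library at a time, 0 to 3 passed and 0 to 1 were called.

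In Atg5 KO, 6 genes were called under median-of-ratios scaling and 6 to 12 when 1 library was left out, while 26 to 34 passed. In Atg7 KO, 5 to 18 were called and 9 to 35 passed when 1 library was left out. Genes of the whole table that passed in either direction then numbered 2785 to 4917 in Atg5 KO and 707 to 3875 in Atg7 KO. In a fit of all 12 libraries, 16 members passed in Atg5 KO and 17 in Atg7 KO, where 9.83% and 8.76% of all genes were higher past the threshold, against 22.9% and 11.3% in the fits of 6 libraries. With the prefix of the library names as a term, 0 were called and 0 passed in either. For Atg5 KO that fit has the same estimate as the prefix B libraries alone, where 34 passed and 10 were called. The spread used and the genes tested differ between them. Between KO cells, leaving out 1 library gave 0 to 11 members past the threshold for Atg5 KO against Fip200 KO and 0 to 12 for Atg7 KO against Fip200 KO.

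The replicate numbers did not pair the samples, since the correlation of deviations from group means between equal numbers ran from −0.217 to 0.079. With a replicate block, 0 members passed and 0 were called in Fip200 KO, 32 passed and 10 were called in Atg5 KO, and 23 passed and 14 were called in Atg7 KO. Over the whole table, 93, 3974 and 1896 genes then passed in either direction, against 242, 4914 and 2955 without the block. The cause of these differences was not tested.

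Signs turned for few named genes. In Fip200 KO, values over the left-out libraries ran from −0.079 to 0.207 for Nop10, from −0.157 to 0.614 for Pes1 and from −0.386 to 0.386 for Nop16, each lowest without Fip200 KO replicate 3, and Nop10 was −0.055 without control replicate 1. Utp15 ran from −0.183 to 0.071 in Atg5 KO, and with the prefix as a term it was 0.121 in Atg5 KO and 0.218 in Atg7 KO.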

Other observations

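Related gene families, chosen with the members' values known, had smaller median log2 fold changes than the 39 genes. Of 79 cytosolic ribosomal protein genes, 45 were higher and 3 lower past the threshold in Atg5 KO and 36 were higher and 1 lower in Atg7 KO, with median log2 fold changes of 0.39 and 0.44. Of all genes, 22.9% were higher and 18.7% lower in Atg5 KO and 11.3% higher and 13.7% lower in Atg7 KO. None passed in Fip200 KO (0 by limma, with 6 at an unadjusted p under 0.05), where their median was 0.23. Many of these genes have processed pseudogenes, so their levels are uncertain. Rpl30 was the highest in Atg5 KO, at 1.33, and Rps2 in Atg7 KO, at 1.22. Of 78 mitochondrial ribosomal protein genes, 33 were higher and 4 lower in Atg5 KO and 11 higher and 3 lower in Atg7 KO, with medians of 0.27 and 0.23, and the Atg7 KO count was near the share of all genes. Mrpl33 was the highest in each KO and Mrps36 the lowest.

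The subunits of the 3 nuclear RNA polymerases were also counted. In Atg5 KO, 7 of 8 genes of RNA polymerase I (Polr1a, Polr1b and Polr1c among them), 7 of 13 of RNA polymerase II and 4 of 10 of RNA polymerase III were higher past the threshold, with medians of 0.58, 0.47 and 0.25, against 22.9% of all genes. In each of the latter families 1 gene was lower past the threshold, and Polr2c and Polr3gl had the lowest log2 fold changes. In Atg7 KO, 3 of 8, 4 of 13 and 2 of 10 were higher and 0, 1 and 1 lower, against 11.3% and 13.7% of all genes, with medians of 0.55, 0.40 and 0.25. In Fip200 KO, 1 of 8, 0 of 13 and 0 of 10 were higher by limma, against 0.356% of all genes, with medians of 0.40, 0.28 and 0.22 and with 1, 3 and 4 genes at an unadjusted p under 0.05. The differences between these families were not tested. Polr3b, a core subunit of RNA polymerase III, was the highest of its family in each KO, with log2 fold changes of 1.38 in Atg5 KO, 1.19 in Fip200 KO and 1.10 in Atg7 KO.

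Myc, chosen after its values were seen, was at 15.7, 39.5 and 25.4 RPKM in control, 23.5, 28.4 and 143 RPKM in Fip200 KO, 32.2, 32 and 23.6 RPKM in Atg5 KO, and 43.3, 40.3 and 39.5 RPKM in Atg7 KO. Its log2 fold changes of 0.86, 0.20 and 0.70 did not pass (adjusted p = 0.556, 0.651 and 0.159, limma). Its highest level was that of Fip200 KO replicate 3, the Atg5 KO libraries lay inside the control range and the Atg7 KO libraries lay at or above the highest control. A relation to the levels of the 39 genes was not tested.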
